A study of Arabidopsis thaliana with 24 samples.

Results

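The genotype difference in the first hour of the elf18 response was measured as an interaction: the change between 1 h and 0 h in ELENA1 over-expressing Arabidopsis thaliana seedlings (OX) minus the same change in wild type (WT). It was formed from 12 of the 24 libraries of the series, with 3 biological replicates in each of 4 groups, and all 21407 loci counted were members, of which 21015 had enough counts to be tested. OX at 1 h and WT at 1 h were 2-week-old Col-0 seedlings that had been grown on agar and then kept for that time in liquid MS medium with 1% sucrose and 5 µM elf18. OX at 0 h and WT at 0 h were untreated seedlings of the same age. No group was moved to liquid without the peptide, so a change from 0 h holds peptide, transfer, sugar and time of day together, and these cannot be told apart. Per the labels' protocols, replicate libraries of each condition shared a sequencing well, so that condition and well cannot be told apart. Neither the transgene's promoter nor the number of independent lines is named in the labels, and ELENA1 itself (AT4G16355) was not analysed here, so the overexpression was not checked.

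The peptide elf18 is the start of bacterial elongation factor Tu. Plants of the mustard family perceive it with the receptor kinase EFR, which sets off calcium influx, an oxidative burst through RBOHD, MAP kinase activity and, within the hour, transcription of many defence genes. ELENA1 is a long noncoding RNA that elf18 induces and that is known to bind a subunit of Mediator, the complex that links transcription factors to RNA polymerase II, and to raise the transcription of PR1, a marker of salicylic acid responses.

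Total counts of the 12 libraries ran from 19200981 to 65802697, with replicate 3 of every group at the low end. Counts of any replicates of a group differed by more than sampling noise, by a chi-square of 6.22 to 52.5 per degree of freedom. WT 0 h replicate 1 stood apart from the other WT libraries at 0 h (52.5 and 44.0), as did OX 1 h replicate 1 from the others of its group (46.0 and 28.0). Levels are given as CPM, counts scaled to library size after its adjustment by TMM scaling. The slope of log2 CPM on log2 transcript length was 0.152 to 0.272 at 0 h. At 1 h it was -0.058 to -0.372, with OX 1 h replicate 1 the steepest. Marker genes of roots, the stomatal lineage and the shoot were detected in every group, and their summed levels are given with the tissue markers.

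In the first hour 1273 genes changed more upward, or less downward, in OX than in WT, which is 6.06% of those tested, and 1395 genes (6.64%) changed in the opposite sense. These 2668 calls are from edgeR's quasi-likelihood test of the interaction at a Benjamini-Hochberg adjusted p under 0.05. Of them 461 of the higher and 221 of the lower ones differed at least 2-fold. In 981 of the genes called higher, every difference between an OX library at 1 h and an OX library at 0 h exceeded every such difference in WT, and in 1225 of the genes called lower all of them lay below. Over all 21015 genes tested, called or not, such a separation was found for 1304 genes upward (6.21%) and 2037 downward (9.69%). Most of the first hour was shared: across 21015 genes, which are not independent replicates, the OX response followed the WT response with a Pearson r of 0.85 and a slope of 0.82. Within OX, 7390 genes rose (35.2%) and 7078 fell (33.7%) at 1 h against 0 h, and within WT 7402 rose (35.2%) and 6842 fell (32.6%). Fitted on the 12 libraries alone, the interaction had 1659 calls. Leaving out WT 0 h replicate 2 gave 1681 calls and leaving out WT 0 h replicate 1 gave 3299. In whole seedlings, fewer cells of a type and less RNA per cell cannot be told apart in any of these values.

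**Figure D1:**
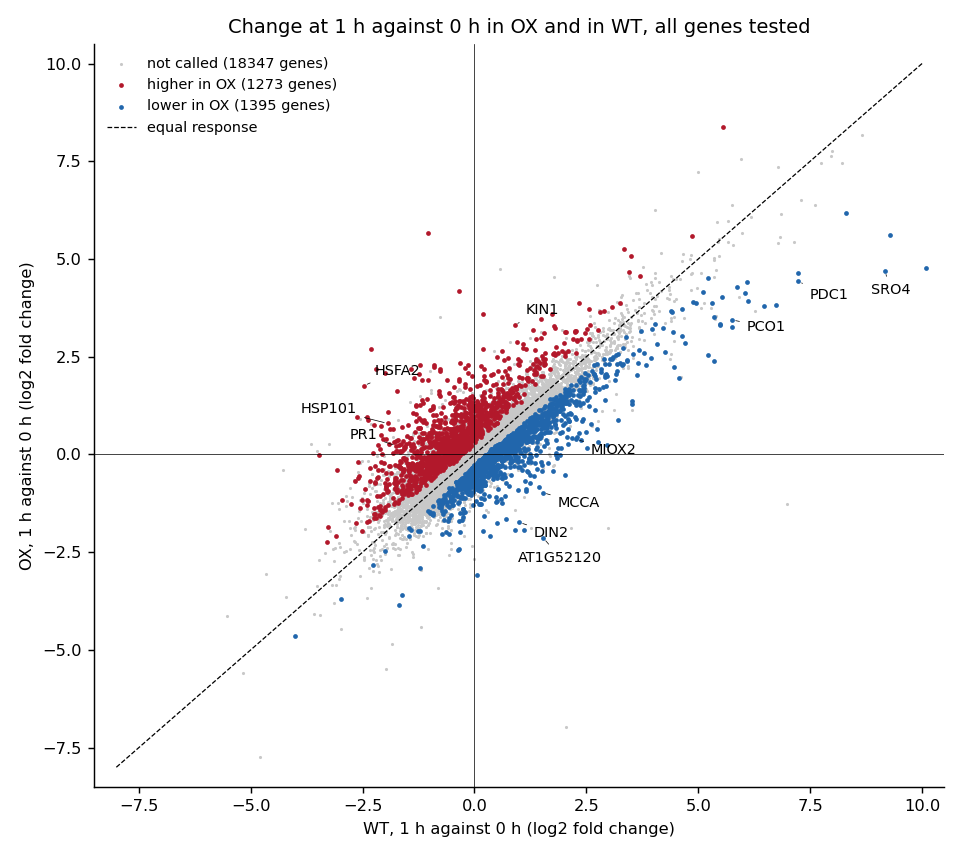
Log2 fold change at 1 h against 0 h in OX (vertical axis) and in WT (horizontal axis) for 21015 genes; each point is a gene, red where the interaction was called higher in OX, blue where it was called lower, grey where it was not called, and the dashed line marks equal responses. HSFA2 and HSP101 lie at positive OX and negative WT values, while PDC1, PCO1 and SRO4 lie at positive values in both genotypes but below the line.

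A gene could be called through the 0 h libraries, the 1 h libraries or both, because the interaction equals the OX minus WT difference at 1 h minus that at 0 h. In untreated seedlings OX exceeded WT for 1619 genes (7.7%) and lay below it for 1453 (6.91%). At 1 h the difference was higher for 587 genes (2.79%) and lower for 610 (2.9%). Of the genes called higher in the interaction, 673 (52.9%) were lower in OX at 0 h and not called at 1 h, 120 (9.43%) were lower at 0 h and higher at 1 h, and 232 were higher at 1 h with no call at 0 h. Of the genes called lower, 740 (53.0%) were higher in OX at 0 h and not called at 1 h, 121 (8.67%) were higher at 0 h and lower at 1 h, and 188 (13.5%) were lower at 1 h with no call at 0 h. A further 231 of those called higher (18.1%) and 343 of those called lower (24.6%) had no difference called at either time. Differences of the same sense at both times were rare. Of the genes called higher, 11 were lower in OX at both times and 6 were higher at both. Of those called lower, 1 was lower in OX at both times and 2 were higher at both. The call fixes only the sign of the 1 h difference minus the 0 h difference. These counts are therefore given as a description. The median OX minus WT log2 difference of the genes called higher was -0.49 at 0 h, 0.31 at 1 h, 0.04 at 6 h and -0.06 at 12 h, and that of the genes called lower was 0.32, -0.20, -0.02 and 0.07. Leaving out OX 1 h replicate 1 gave 472 differences at 1 h in place of 1197, and leaving out WT 1 h replicate 2 or WT 1 h replicate 1 gave 648 or 736. At 0 h, leaving out WT 0 h replicate 2 gave 1825 in place of 3072.

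Read by genotype, 385 of the genes called higher (30.2%) fell in WT with no call in OX, 288 (22.6%) rose in OX with no call in WT, and 173 (13.6%) rose in OX and fell in WT. A further 210 (16.5%) rose in both and 216 (17.0%) fell in both. Among the genes called lower, 507 (36.3%) rose in both genotypes and less in OX, 321 (23.0%) fell in OX with no call in WT, 319 (22.9%) rose in WT with no call in OX, and 101 (7.24%) fell in OX and rose in WT.

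**Figure D2:**
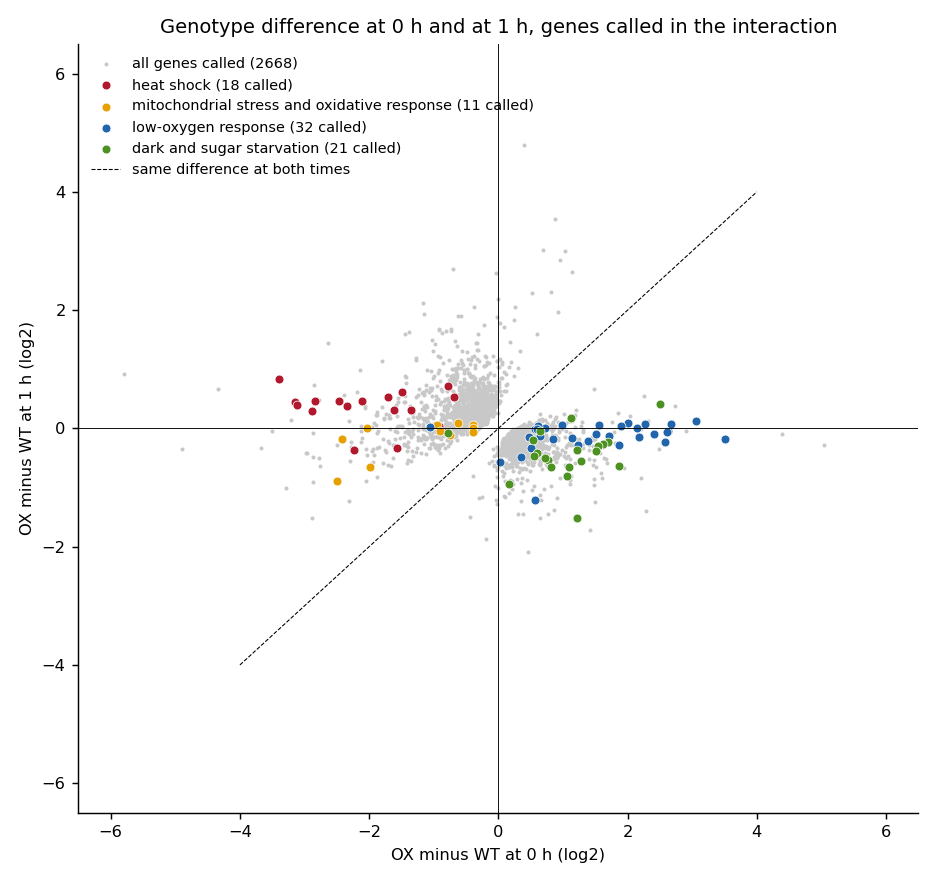
OX minus WT log2 difference at 1 h (vertical axis) and at 0 h (horizontal axis) for the 2668 genes called in the interaction, with the called members of 4 gene lists in colour; the dashed line marks the same difference at both times. Called heat shock and mitochondrial stress genes lie left of 0 on the horizontal axis, and called low-oxygen and starvation genes lie right of it except PBP1 and BZIP11.

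Heat shock genes gave the largest positive values. Of 30 heat shock factors and chaperones tested, 18 (60%) were called higher in the interaction and 0 lower, beside 6.06% and 6.64% of all genes, and their median log2 value was 1.23, beside -0.03 over all genes tested; 1 member was lower at an unadjusted p under 0.05, and DESeq2 also gave 18 higher and 0 lower. They rose in OX in 22 cases and fell in 3, while in WT 6 rose and 16 fell. The difference lay at the start: 18 of the 30 were lower in OX at 0 h, and 3 were higher in OX at 1 h. The summed level of the list was 702 to 829 CPM in OX at 1 h and 394 to 418 CPM in OX at 0 h. WT gave 639 to 722 CPM at 1 h and 789.7 to 1135 CPM at 0 h. The lowest library of WT at 0 h was replicate 1, and the count of 18 ran from 18 to 19 over the 20 alternatives, that library left out included. Of all genes, 7.7% were higher and 6.91% lower in OX at 0 h, and 2.79% and 2.9% at 1 h. From 0 h to 1 h, 35.2% rose and 33.7% fell in OX, and 35.2% and 32.6% in WT. The counts of every list below are to be read beside these shares.

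HSFA2, the heat-induced transcription factor that drives chaperone genes, had 5.43, 6.28 and 4.19 CPM in OX at 1 h and 1.94, 1.32 and 1.41 CPM in OX at 0 h. WT had 2.59, 3.17 and 3.53 CPM at 1 h and 10.8, 20.4 and 19.4 CPM at 0 h. OX libraries at 1 h all lay above those of OX at 0 h, while WT libraries at 1 h all lay below those of WT at 0 h. Its interaction was 4.23 ± 0.30 (SE, adjusted p = 6.4e-09) on the log2 scale, made of responses of 1.76 in OX and -2.47 in WT. HSP101, the disaggregase needed for acquired heat tolerance, had 20.8, 30.5 and 20.7 CPM in OX at 1 h and 14.6, 14.2 and 12.9 CPM in OX at 0 h. WT had 14.7, 21.6 and 19.6 CPM at 1 h and 45.5, 81.5 and 86.04 CPM at 0 h. Here too the genotypes moved in opposite senses, by 0.79 in OX and -1.94 in WT, for an interaction of 2.73 ± 0.27 (SE, adjusted p = 6.8e-07).

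Small heat shock proteins, which hold unfolding proteins in a soluble state, made up 6 of the 12 largest positive interactions among called genes with a mean log2 CPM of at least 1 and responses that did not overlap. They were HSP17.6A (3.6 (adjusted p = 3.9e-06)), HSP17.6II (3.51 (adjusted p = 3.9e-06)), AT1G07400 (3.3 (adjusted p = 2.9e-07)), AT1G53540 (3.18 (adjusted p = 9.6e-06)), AT1G59860 (2.95 (adjusted p = 1.8e-06)) and HSP17.4 (2.92 (adjusted p = 2.1e-05)). Some of these genes may be close copies of each other. The labels do not say how shared reads were counted, so the value of any 1 of them is uncertain. HSP17.4 had 12.8, 16.6 and 10.9 CPM in OX at 1 h and 2.81, 1.97 and 5.11 CPM in OX at 0 h. WT had 9.36, 11.6 and 8.42 CPM at 1 h and 12.3, 17.7 and 21.2 CPM at 0 h. All OX libraries at 1 h exceeded those at 0 h, and all WT libraries at 1 h lay below those at 0 h. ROF2, a heat-induced immunophilin that binds HSP90, had an interaction of 2.57 ± 0.27 (SE, adjusted p = 1e-06), HSP90.1, a cytosolic chaperone of signalling proteins, 2.11 ± 0.18 (SE, adjusted p = 8.5e-08), and HSP70, its partner chaperone, 2.23 ± 0.19 (SE, adjusted p = 9.4e-08). HSP90.1 and HSP70 were also higher in OX than in WT at 1 h, by 0.62 (adjusted p = 0.004) and 0.52 (adjusted p = 0.023).

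The windows of 250 bases before the annotated gene start of HSFA2 and HSP17.4 are shown because both hold 2 heat shock element cores, the letters to which heat shock factors bind, and that of PDC1, a low-oxygen gene described next, because it holds none. They are read 5′ to 3′ on the gene's strand from the TAIR10.1 genome (HSFA2 at chr2:11135374-11135623, plus strand; HSP17.4 at chr3:16984868-16985117, minus strand; PDC1 at chr4:15954804-15955053, minus strand). Capitals mark, on either strand, GAANNTTC (heat shock element core), CACGTG (G-box), TTGAC (W-box core), GCCGCC (GCC box), CCGAC (drought and cold element core), AAAATATCT (evening element) and CGCGTT (rapid stress response element).
HSFA2: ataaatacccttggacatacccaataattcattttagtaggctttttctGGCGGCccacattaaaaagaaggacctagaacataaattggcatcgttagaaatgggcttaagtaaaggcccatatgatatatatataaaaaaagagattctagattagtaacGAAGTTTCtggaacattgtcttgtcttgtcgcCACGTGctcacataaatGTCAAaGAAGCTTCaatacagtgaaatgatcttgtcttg
HSP17.4: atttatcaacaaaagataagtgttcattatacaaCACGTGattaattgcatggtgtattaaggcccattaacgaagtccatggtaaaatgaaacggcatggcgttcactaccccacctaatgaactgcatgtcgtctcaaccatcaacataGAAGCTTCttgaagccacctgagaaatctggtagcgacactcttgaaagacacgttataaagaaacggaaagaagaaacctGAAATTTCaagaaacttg
PDC1: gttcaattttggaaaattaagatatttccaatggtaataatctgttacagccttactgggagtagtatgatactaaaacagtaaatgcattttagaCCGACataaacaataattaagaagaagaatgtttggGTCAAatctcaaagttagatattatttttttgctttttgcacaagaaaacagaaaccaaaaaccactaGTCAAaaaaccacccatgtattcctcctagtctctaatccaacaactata
The heat shock element core stood in 6 of the 18 windows of heat shock genes called higher (33.3%), in 2 of 31 of low-oxygen genes called lower (6.45%) and in 4 of 20 of starvation genes called lower (20%), beside 9.42% of 20955 windows of all genes tested. Over all genes called, it stood in 10.9% of windows of those called higher and 8.89% of those called lower. The W-box core, the letters bound by WRKY factors, stood in 47% of windows of genes called higher and 48.3% of those called lower, beside 45.6% of all. Such matches are of letters only and say nothing on their own of factor binding.

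Genes of the mitochondrial stress response, by which the nucleus answers impaired respiration, were lower in OX at the start. Of 18 tested, 11 (61.1%) were called higher in the interaction, beside 6.06% of all genes, and the median was 0.49. In all, 0 were called lower, 1 was lower at an unadjusted p under 0.05 and DESeq2 called 1 lower. At 0 h 13 of the 18 were lower in OX, and at 1 h 3 were, beside 6.91% and 2.9% of all genes. NAC013, a membrane-bound transcription factor that controls these genes, had 27.3, 33.3 and 31.8 CPM in OX at 1 h and 16.2, 16.1 and 14.8 CPM in OX at 0 h. WT had 29.7, 27.3 and 31.8 CPM at 1 h and 27.1, 33.1 and 31.2 CPM at 0 h. OX at 0 h was below every other library shown, and the remaining groups overlapped; the interaction was 1.01 ± 0.13 (SE, adjusted p = 2.2e-05). AOX1D and AOX1A encode alternative oxidases that let electrons bypass the proton-pumping chain, and had interactions of 2.04 ± 0.29 and 0.65 ± 0.13 (SE, adjusted p = 4.9e-05 and 0.0024). UGT74E2, a glucosyltransferase of the auxin precursor indole-3-butyric acid, had 2.23 ± 0.33 (SE, adjusted p = 9e-05). The count of 11 was 7 without WT 0 h replicate 2, WT 1 h replicate 1 or OX 0 h replicate 1.

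Low-oxygen genes mostly had interactions of the opposite sense. Such genes are known to be induced on transfer of seedlings to liquid, which cannot be told apart here from peptide, sugar and time of day. From 0 h to 1 h, 41 of the 44 tested rose in OX and 42 rose in WT, beside 35.2% of all genes in each. Median responses were 3.21 in OX and 3.99 in WT on the log2 scale. In the interaction 31 (70.5%) were lower in OX and 1 was higher, beside 6.64% and 6.06% of all genes, and the median was -0.97. The difference stood at 0 h, where 30 of the 44 were higher in OX and 2 lower, beside 7.7% and 6.91% of all genes. At 1 h 4 were lower, beside 2.9% of all genes. The summed level of the list was 13449.8 to 14219 CPM in OX at 1 h and 1676 to 1998 CPM in OX at 0 h. WT gave 14707 to 15074 CPM at 1 h and 1039 to 1113 CPM at 0 h. The genotypes did not overlap at 0 h, and at 1 h OX lay below WT. The count of 31 ran from 26 to 32 over the 20 alternatives.

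PDC1, the pyruvate decarboxylase that opens ethanol fermentation, had 1046, 1206 and 1257 CPM in OX at 1 h and 40.8, 62.5 and 60.3 CPM in OX at 0 h. WT had 1357, 1436 and 1321 CPM at 1 h and 8.49, 12.8 and 5.39 CPM at 0 h. Its levels at 1 h were within a factor of 2 of each other in all 6 libraries, while at 0 h every OX library exceeded every WT library, and the interaction was -2.81 ± 0.30 (SE, adjusted p = 1.5e-06). PCO1, a cysteine oxidase that marks oxygen-sensing ERF factors for breakdown, had 263, 259.7 and 246 CPM in OX at 1 h and 20.5, 22.9 and 27.9 CPM in OX at 0 h. WT had 288, 288 and 276 CPM at 1 h and 6.53, 5.23 and 3.57 CPM at 0 h. Again the genotypes were apart at 0 h, by 2.17 (adjusted p = 2.5e-08), with -0.15 at 1 h (adjusted p = 0.58), for an interaction of -2.32 ± 0.22 (SE, adjusted p = 4.3e-07). HRA1, a transcription factor that dampens the low-oxygen response, had an interaction of -2.66 ± 0.56 (SE, adjusted p = 0.0026). It had 531, 520.0 and 498 CPM in OX at 1 h and 80.1, 88.1 and 96.1 CPM in OX at 0 h. WT had 554, 498 and 539.8 CPM at 1 h and 31.5, 3.61 and 6.88 CPM at 0 h. The WT libraries at 0 h were uneven, replicate 1 being the highest, and without it the interaction was -4.16.

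SRO4, of the family of RCD1, a stress regulator, is not in the low-oxygen list and had the largest negative interaction, -4.48 ± 0.39 (SE, adjusted p = 1e-07). It had 59.1, 57.97 and 66.8 CPM in OX at 1 h and 2.01, 2.59 and 2.63 CPM in OX at 0 h. WT had 70.7, 64.4 and 60.3 CPM at 1 h and 0.0521, 0.215 and 0 CPM at 0 h. WT at 0 h held only 3, 13 and 0 counts in replicates 1 to 3, so the size of its WT response, and of the interaction, depends on few counts and on the fitting. AT5G10040, a low-oxygen gene of unknown function, was alike in this: 5, 14 and 0 counts in WT at 0 h and an interaction of -3.69 ± 0.53 (SE, adjusted p = 5.5e-05). Better counted members of the list were AT3G27220, a kelch-repeat protein, with -1.85 ± 0.12 (SE, adjusted p = 4.5e-09), and the unannotated AT5G66985 with -1.59 ± 0.16 (SE, adjusted p = 8.6e-07). AT3G27220 had 244, 228 and 231 CPM in OX at 1 h and 30.8, 33.5 and 33.9 CPM in OX at 0 h. WT had 229, 227 and 226 CPM at 1 h and 9.91, 9.04 and 7.03 CPM at 0 h. Its groups were apart at 0 h and overlapped at 1 h. The wound-responsive family members AT4G10265 (-2.92 (adjusted p = 0.00014)) and AT4G33560 (-2.67 (adjusted p = 6.9e-07)), the rhodanese-like AT2G17850 (-2.59 (adjusted p = 3.4e-06)) and AT3G43850, of unknown function (-2.96 (adjusted p = 3.2e-06)), were further genes among the 12 largest negative interactions ranked in the same way; in each, every WT library at 0 h was under 4 CPM. The value of AT4G10265 was -5.05 without WT 0 h replicate 1. The exception of the list was PBP1, a calcium-binding partner of the kinase PINOID, with 1.08 ± 0.20 (SE, adjusted p = 0.00072); the higher count was 2 without WT 0 h replicate 1.

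**Figure D3:**
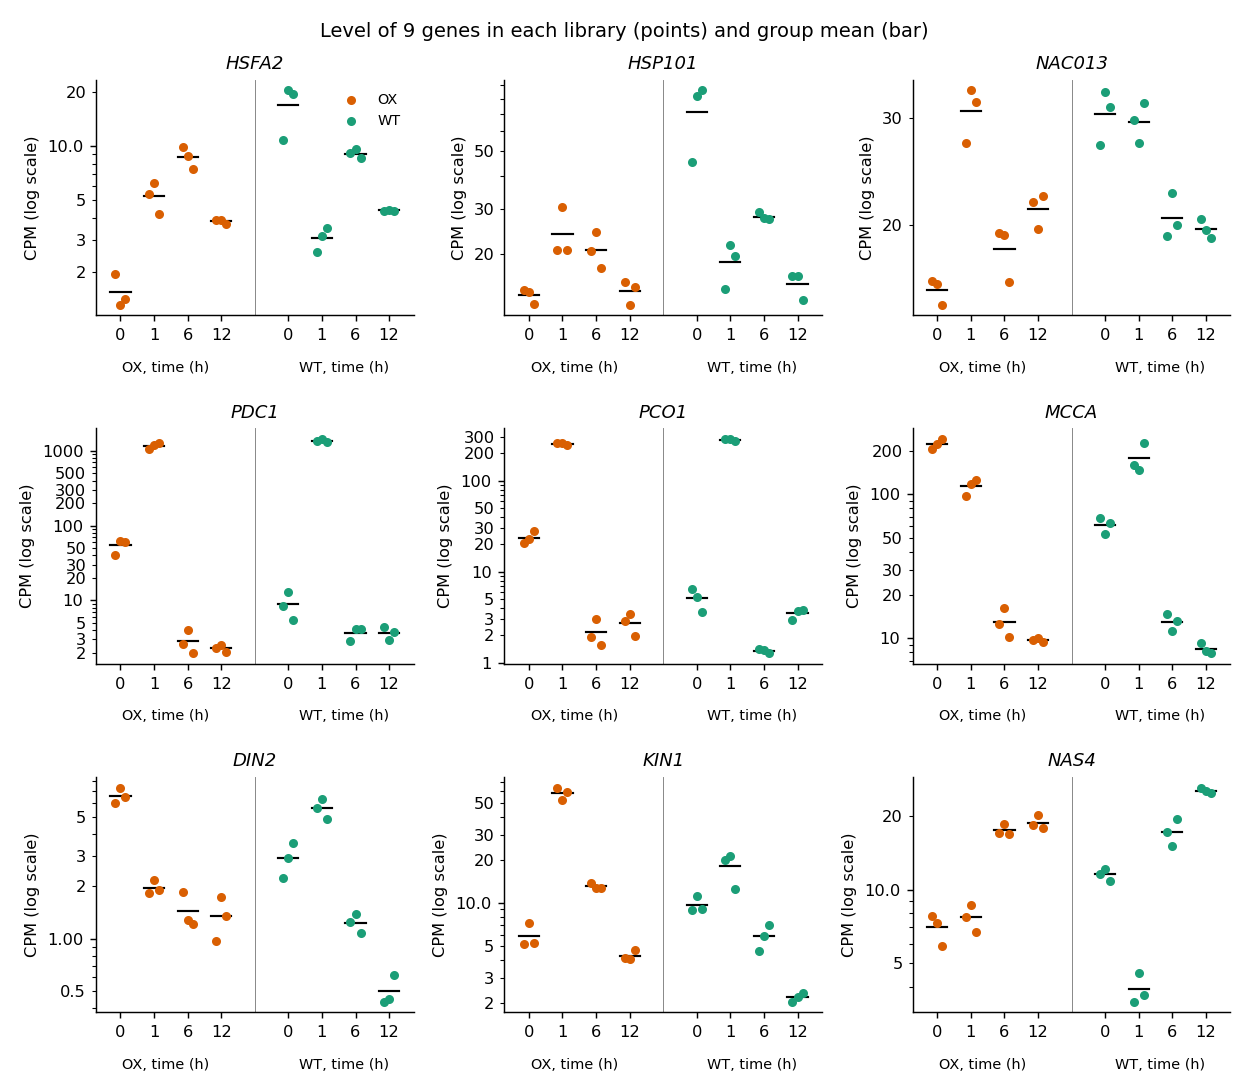
Level of 9 genes in CPM (vertical axis, log scale) in each library of OX (left, orange) and WT (right, green) at 0, 1, 6 and 12 h; points are libraries and bars are means of 3. HSFA2, HSP101 and NAC013 at 0 h are lower in OX, PDC1, PCO1, MCCA and DIN2 at 0 h are higher in OX, and KIN1 and NAS4 at 1 h are higher in OX.

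Dark and sugar starvation genes are induced when plants run short of carbon and include the mitochondrial enzymes that burn branched-chain amino acids. In the first hour 22 of 29 rose in WT and 3 fell, whereas in OX 8 rose and 9 fell. Of all genes, 35.2% rose and 32.6% fell in WT, and 35.2% and 33.7% in OX. The interaction was called lower for 20 (69%) and higher for 1, beside 6.64% and 6.06% of all genes, with a median of -1.22. The lower count ran from 18 to 21 over the 20 alternatives. At 0 h 18 of the 29 were higher in OX and 1 lower, beside 7.7% and 6.91% of all genes. At 1 h 10 were lower, beside 2.9% of all genes. The summed level was 6259 to 6469 CPM in OX at 1 h and 5841 to 6452 CPM in OX at 0 h. WT gave 7257 to 9457 CPM at 1 h and 2072 to 3244 CPM at 0 h.

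MCCA, a subunit of the carboxylase that breaks down leucine, had 96.7, 118 and 126 CPM in OX at 1 h and 205, 223 and 241 CPM in OX at 0 h. WT had 159, 147 and 226 CPM at 1 h and 67.9, 52.95 and 63.1 CPM at 0 h. OX libraries at 1 h all lay below those at 0 h, and WT libraries at 1 h all lay above those at 0 h, for an interaction of -2.51 ± 0.21 (SE, adjusted p = 8.5e-08). IVD, the dehydrogenase that acts just before it, had -1.47 ± 0.13 (SE, adjusted p = 1.1e-07), and DIN4, a subunit of the branched-chain keto acid dehydrogenase, -1.58 ± 0.14 (SE, adjusted p = 1.7e-07). DIN2, a dark-induced beta-glucosidase, had 1.82, 2.17 and 1.898 CPM in OX at 1 h and 6.01, 7.36 and 6.48 CPM in OX at 0 h. WT had 5.596, 6.37 and 4.89 CPM at 1 h and 2.22, 2.92 and 3.53 CPM at 0 h. Its OX minus WT difference was 1.22 at 0 h and -1.51 at 1 h, of opposite sign and called at both times, and the interaction was -2.74 ± 0.26 (SE, adjusted p = 2.9e-07). MIOX2, which oxidises myo-inositol, rose in both genotypes but by 0.38 in OX against 2.28 in WT, an interaction of -1.89 ± 0.16 (SE, adjusted p = 9.4e-08). BZIP11, a transcription factor whose translation sucrose represses, was the member called higher, at 0.71 ± 0.14 (SE, adjusted p = 0.0014); it fell in both genotypes, with responses of -0.47 in OX and -1.18 in WT on the log2 scale.

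**Figure D4:**
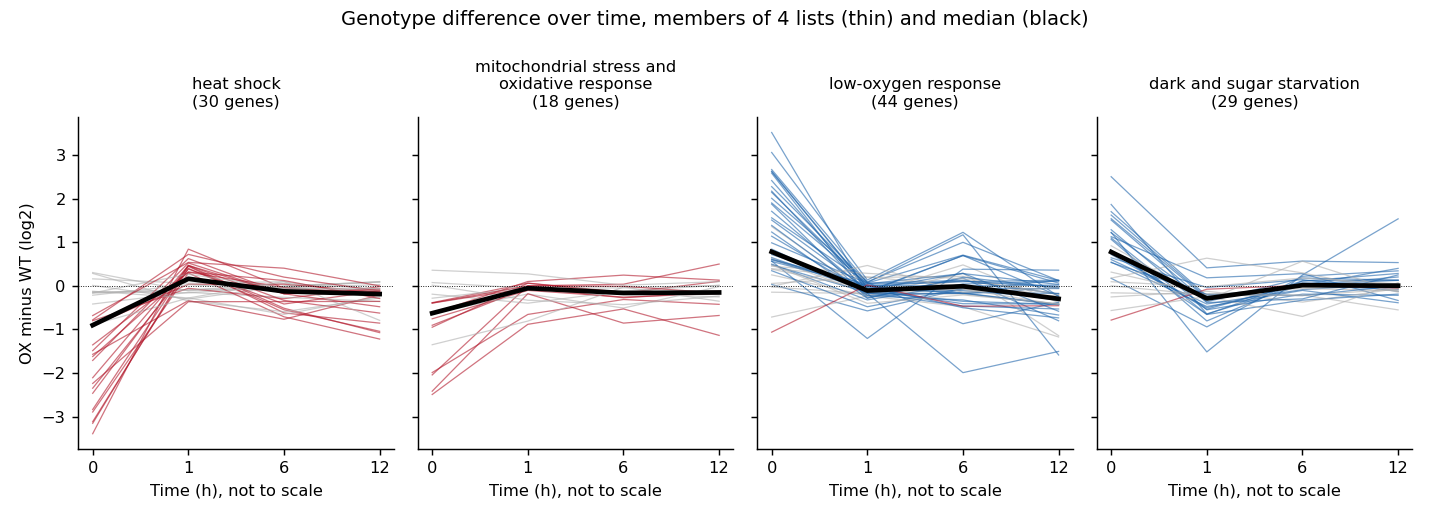
OX minus WT log2 difference (vertical axis) at 0, 1, 6 and 12 h (horizontal axis, evenly spaced and not to scale) for all tested members of 4 lists; thin lines are genes, red or blue where called higher or lower in the 1 h interaction and grey where not called, and the black line is the median. The medians are -0.90 and -0.63 at 0 h for heat shock and mitochondrial stress genes and 0.78 and 0.77 for low-oxygen and starvation genes, and lie between -0.30 and 0.16 at the later times.

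Some genes were higher in OX than in WT at 1 h. KIN1, a cold- and abscisic acid-induced protein, had 63.8, 52.6 and 59.2 CPM in OX at 1 h and 5.15, 7.18 and 5.26 CPM in OX at 0 h. WT had 19.9, 21.4 and 12.6 CPM at 1 h and 8.97, 11.2 and 9.04 CPM at 0 h. It rose in both genotypes, by 3.31 in OX and 0.90 in WT, and OX at 1 h lay above all other libraries; the interaction was 2.41 ± 0.23 (SE, adjusted p = 2.9e-07). Its OX minus WT difference was -0.73 at 0 h, 1.69 at 1 h, 1.2 at 6 h and 0.96 at 12 h, and every OX library lay above every WT library at 6 h and 12 h too. Its near-identical neighbour KIN2, whose reads may be shared with it, had 1.65 ± 0.21 (SE, adjusted p = 2e-05), and the dehydrin LTI30 1.18 ± 0.14 (SE, adjusted p = 7.6e-06). Of 34 cold, osmotic and abscisic acid response genes, 7 (20.6%) were higher and 3 (8.82%) lower in the interaction, with a median of 0.22. Of all genes, 6.06% were called higher and 6.64% lower. The lower ones included ABF4, a factor that binds abscisic acid response elements (-0.77 (adjusted p = 0.00014)), and the transcription factor NAC055 (-0.92 (adjusted p = 0.013)).

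NRT2.1, the main high-affinity nitrate transporter of roots, had 16.2, 11.4 and 12.6 CPM in OX at 1 h and 2.66, 2.55 and 3.94 CPM in OX at 0 h. WT had 3.92, 3.66 and 4.55 CPM at 1 h and 3.25, 3.23 and 3.91 CPM at 0 h. OX at 1 h stood above all other groups, which overlapped, and the interaction was 1.97 ± 0.32 (SE, adjusted p = 0.00025). AT1G77520, annotated as an O-methyltransferase, had 14.1, 11.3 and 9.83 CPM in OX at 1 h and 3.48, 4.63 and 5.45 CPM in OX at 0 h. WT had 3.22, 3.17 and 3.02 CPM at 1 h and 7.15, 6.37 and 6.23 CPM at 0 h. It rose in OX and fell in WT, with responses of 1.43 in OX and -1.07 in WT and an interaction of 2.49 ± 0.22 (SE, adjusted p = 1.5e-07). Of 20 nitrate response genes 2 (10%) were higher and 5 (25%) lower, beside 6.06% and 6.64% of all genes, with a median of -0.21. The lower count was 3 with the 12 libraries alone and 8 without WT 0 h replicate 1. BT1, a scaffold protein that represses nitrate uptake genes, was the strongest of these at -2.27 ± 0.27 (SE, adjusted p = 4.8e-06), with responses of -0.84 in OX and 1.43 in WT, and LBD39, a nitrate-induced repressor, was called higher at 0.61 ± 0.11 (SE, adjusted p = 0.00086).

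Most early elf18 and flg22 marker genes rose, 39 of 42 in OX and 36 in WT, with median responses of 2.09 in OX and 1.66 in WT. In the interaction 12 were called higher and 2 lower, beside the 6.06% and 6.64% of all genes, with a median of 0.15. At 0 h 3 of the 42 were higher in OX and 19 lower, beside 7.7% and 6.91% of all genes. Their summed level at 0 h was 1285 to 1473 CPM in OX. In WT replicates 1, 2 and 3 it was 2028, 1336 and 2269 CPM, so that WT replicate 2 lay within the OX range. At 1 h 1 was higher and 4 lower, beside 2.79% and 2.9% of all genes. With the 12 libraries alone in the fit, 4 were called higher and 0 lower in the interaction. ZAT12, a zinc finger regulator of oxidative stress responses, had 56.5, 48.9 and 39.5 CPM in OX at 1 h and 9.901, 7.38 and 8.72 CPM in OX at 0 h. WT had 58.8, 68.9 and 52.00 CPM at 1 h and 30.2, 47.4 and 49.5 CPM at 0 h. It was lowest in OX at 0 h, while the libraries at 1 h overlapped, and its interaction was 1.97 ± 0.24 (SE, adjusted p = 8.7e-06). ZAT7, a related zinc finger protein, had 1.29 ± 0.20 (SE, adjusted p = 0.00013), and WRKY40, a repressor in the defence network, 1.02 ± 0.21 (SE, adjusted p = 0.0019). The 2 called lower, PHI-1 and the cytochrome P450 CYP81F2, lost their calls under 8 and 13 of the 20 alternatives. The lower count was 0 with the 12 libraries alone or without the 3 libraries of steepest length trend or without WT 0 h replicate 2, WT 1 h replicate 2, OX 0 h replicate 2, OX 1 h replicate 1 or OX 1 h replicate 3, and it was 5 without WT 0 h replicate 1, and it was 1 with all libraries thinned to the smallest or without WT 1 h replicate 1, OX 0 h replicate 1, OX 0 h replicate 3 or OX 1 h replicate 2.

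Pattern receptors and their first signalling partners had 4 members of 36 (11.1%) called higher and 9 (25%) lower, with a median of -0.15. Of all genes, 6.06% were called higher and 6.64% lower. Of the 36, 30 rose in OX and 31 in WT, beside 35.2% of all genes in each. RBOHD, the oxidase of the immune oxidative burst, had 753, 968 and 803 CPM in OX at 1 h and 153, 184 and 162 CPM in OX at 0 h. WT had 1084, 1257 and 996 CPM at 1 h and 150.3, 94.03 and 104 CPM at 0 h. Every library at 1 h exceeded every library at 0 h, with responses of 2.34 in OX and 3.26 in WT, and the interaction was -0.92 ± 0.18 (SE, adjusted p = 0.0017). CPK28, a calcium-dependent kinase that limits the level of the immune kinase BIK1, had -0.83 ± 0.15 (SE, adjusted p = 0.0007), and PBL1, a kinase of the BIK1 family, -0.54 ± 0.10 (SE, adjusted p = 0.00089). MKK4, an activator of immune MAP kinases, was called higher at 0.61 ± 0.13 (SE, adjusted p = 0.0028). The higher count was 7 without the 3 libraries of steepest length trend or with the length trend removed or without OX 1 h replicate 1, and it was 1 with all libraries thinned to the smallest. Intracellular immune receptors were called lower in 5 of 14 cases and higher in 0 (0 also at an unadjusted p under 0.05 and with DESeq2), with a median of -0.30; the lower count was 3 with the length trend removed and with thinned libraries. ZAR1, the receptor that forms the plant resistosome, had -0.91 ± 0.15 (SE, adjusted p = 0.00022).

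PR1, the marker gene that ELENA1 is known to raise, had 82.5, 45.3 and 87.8 CPM in OX at 1 h and 63.6, 35.1 and 87.02 CPM in OX at 0 h. WT had 7.25, 12.4 and 6.998 CPM at 1 h and 34.4, 26.2 and 29.5 CPM at 0 h. OX libraries at 1 h and 0 h overlapped, and WT libraries at 1 h all lay below those at 0 h, so the interaction of 1.96 ± 0.40 (SE, adjusted p = 0.0023) came with responses of 0.22 in OX and -1.74 in WT. PR2, a beta-1,3-glucanase of the same response, had 27.7, 24.7 and 39.2 CPM in OX at 1 h and 27.7, 28.7 and 41.4 CPM in OX at 0 h. WT had 4.72, 5.15 and 4.61 CPM at 1 h and 9.71, 25.7 and 7.94 CPM at 0 h. WT 0 h replicate 2 stood high in its group, and the interaction of 1.51 ± 0.48 (SE, adjusted p = 0.039) had overlapping responses and was 0.80 without that library. That call was lost under 12 of 20 alternatives, DESeq2 and the 12 libraries alone among them, and without any of WT 0 h replicate 2, WT 1 h replicates 1, 2 or 3, OX 0 h replicates 1 or 2, or OX 1 h replicates 1 or 3, with an adjusted p of up to 0.21.

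Of 36 genes of salicylic acid and systemic acquired resistance, 6 (16.7%) were called higher and 5 (13.9%) lower in the interaction, with a median of 0.06. Of all genes, 6.06% were called higher and 6.64% lower. At 0 h 15 of the 36 were higher in OX than in WT, and at 1 h 14 were, beside 7.7% and 2.79% of all genes. PCC1, a gene under pathogen and clock control, fell in both genotypes, with responses of -1.28 in OX and -2.76 in WT and an interaction of 1.49 ± 0.33 (SE, adjusted p = 0.0038). DMR6, which hydroxylates salicylic acid, had 21.99, 22.9 and 29.4 CPM in OX at 1 h and 38.4, 42.4 and 47.8 CPM in OX at 0 h. WT had 23.9, 20.9 and 28.96 CPM at 1 h and 24.1, 22.4 and 19.03 CPM at 0 h. OX fell, and at 1 h the genotypes overlapped, an interaction of -0.95 ± 0.16 (SE, adjusted p = 0.00041). NPR1, the salicylic acid receptor and coactivator, rose in both genotypes, by 1.47 in OX and 2.05 in WT, with -0.58 ± 0.11 (SE, adjusted p = 0.0014). The higher count was 2 with the 12 libraries alone, and it was 3 without WT 1 h replicate 1 or OX 0 h replicate 1, and the lower count 2 with the 12 libraries alone, and it was 9 without WT 0 h replicate 1, and it was 3 without WT 0 h replicate 2, WT 0 h replicate 3, WT 1 h replicate 2, OX 0 h replicate 2 or OX 1 h replicate 1.

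Jasmonate and wound response genes were called higher in 5 (16.1%) and lower in 3 (9.68%) of 31 cases, with a median of -0.02. Of all genes, 6.06% were called higher and 6.64% lower. At 0 h 1 of the 31 was higher in OX than in WT and 13 were lower, beside 7.7% and 6.91% of all genes. At 1 h 2 were higher and 11 lower, beside 2.79% and 2.9% of all genes. The median OX minus WT difference was -0.34 at 0 h and -0.35 at 1 h. VSP2 and VSP1, neighbouring and near-identical storage protein genes and classic jasmonate outputs, had 2.19 ± 0.31 (SE, adjusted p = 4.3e-05) and 2.3 ± 0.34 (SE, adjusted p = 9.7e-05). VSP2 had 19.9, 14.5 and 17.9 CPM in OX at 1 h and 16.4, 12.2 and 14.5 CPM in OX at 0 h. WT had 11.4, 7.33 and 12.00 CPM at 1 h and 25.5, 50.2 and 40.04 CPM at 0 h. WT libraries at 1 h lay below all others, while OX libraries overlapped between times. CYP94B3, which hydroxylates the active jasmonate, had 1.2 ± 0.30 (SE, adjusted p = 0.0092), and the repressor JAZ3 -0.69 ± 0.16 (SE, adjusted p = 0.0051). The lower count was 1 with the 12 libraries alone or without the 3 libraries of steepest length trend or without WT 1 h replicate 2 or OX 1 h replicate 1. Among 24 ethylene genes 2 (8.33%) were higher and 5 (20.8%) lower, with a median of -0.16, and the higher share was near that of all genes. ACS6, which makes the ethylene precursor and is a target of immune MAP kinases, had 61.7, 49.95 and 61.9 CPM in OX at 1 h and 21.9, 25.2 and 19.9 CPM in OX at 0 h. WT had 61.6, 57.9 and 53.9 CPM at 1 h and 62.1, 59.3 and 94.9 CPM at 0 h. OX at 0 h was the lowest group and the genotypes overlapped at 1 h, for 1.68 ± 0.20 (SE, adjusted p = 5e-06). The ethylene receptors ETR2 and ERS1 had -0.83 ± 0.11 (SE, adjusted p = 2.1e-05) and -0.47 ± 0.09 (SE, adjusted p = 0.0015), and the transcription factor EIN3 -0.39 ± 0.09 (SE, adjusted p = 0.0063). The ethylene counts were 1 without WT 1 h replicate 1, WT 1 h replicate 2, OX 0 h replicate 1 or OX 1 h replicate 2 for higher, and 3 with the 12 libraries alone or with the length trend removed or with all libraries thinned to the smallest or without WT 0 h replicate 2 or OX 1 h replicate 1 for lower.

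Lists of cell wall, cytokinin and auxin genes held more members called higher than lower. Of all genes, 6.06% were called higher and 6.64% lower. Of 20 expansins and xyloglucan enzymes, which loosen and remodel cell walls, 8 were higher and 1 lower, with a median of 0.42. EXPA5 had 13.8, 11.1 and 12.1 CPM in OX at 1 h and 5.47, 5.03 and 5.21 CPM in OX at 0 h. WT had 10.8, 10.7 and 10.9 CPM at 1 h and 9.86, 12.8 and 10.3 CPM at 0 h. OX minus WT was -1.07 at 0 h (adjusted p = 2e-07) and 0.19 at 1 h (adjusted p = 0.26), for an interaction of 1.26 ± 0.14 (SE, adjusted p = 2.9e-06). XTH20, a wall-remodelling enzyme, had 1.1 ± 0.16 (SE, adjusted p = 8.2e-05) and EXPA4 0.81 ± 0.12 (SE, adjusted p = 0.00011), while XTH24 was the member called lower, at -1.29 ± 0.15 (SE, adjusted p = 3.2e-06); the lower count was 2 with the replicate block or with the length trend removed or without WT 0 h replicate 1 or WT 0 h replicate 3. Of 13 cytokinin genes 4 were higher and 0 lower (0 also at an unadjusted p under 0.05 and with DESeq2), with a median of 0.57. CYP735A2, which makes trans-zeatin cytokinins, had 1.31 ± 0.24 (SE, adjusted p = 0.00086); the count of 4 was 1 with the 12 libraries alone or without WT 0 h replicate 2 or WT 1 h replicate 2, and it was 2 without WT 0 h replicate 3, WT 1 h replicate 1, OX 0 h replicate 3 or OX 1 h replicate 3. Of 30 auxin genes 6 were higher and 2 lower, with a median of -0.02. The influx carrier LAX3 had 0.79 ± 0.09 (SE, adjusted p = 5.9e-06), the efflux carrier PIN7 0.58 ± 0.11 (SE, adjusted p = 0.00086) and GH3.5, which conjugates auxin to amino acids, -0.80 ± 0.16 (SE, adjusted p = 0.0018). The auxin counts were 3 without WT 1 h replicate 2, OX 0 h replicate 2 or OX 1 h replicate 1 for higher, and 1 with the 12 libraries alone or with the length trend removed or without WT 0 h replicate 2, WT 1 h replicate 3, OX 0 h replicate 2, OX 0 h replicate 3 or OX 1 h replicate 2 for lower.

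Genes of indole-derived defence compounds were called higher in 7 of 33 cases and lower in 2, with a median of 0.12; the lower count was 0 with the 12 libraries alone or with all libraries thinned to the smallest or without WT 0 h replicate 2, WT 1 h replicate 1, WT 1 h replicate 2, OX 0 h replicate 1, OX 0 h replicate 2, OX 1 h replicate 2 or OX 1 h replicate 3, and it was 1 without the 3 libraries of steepest length trend or without OX 0 h replicate 3 or OX 1 h replicate 1. MYB34, a factor for indole glucosinolate synthesis, had 25.6, 21.99 and 19.03 CPM in OX at 1 h and 14.6, 15.2 and 15.7 CPM in OX at 0 h. WT had 11.5, 12.3 and 9.33 CPM at 1 h and 20.7, 30.2 and 23.97 CPM at 0 h. It rose in OX and fell in WT, with 1.72 ± 0.18 (SE, adjusted p = 1.1e-06). CYP81F4, which modifies indole glucosinolates, had 1.53 ± 0.20 (SE, adjusted p = 2.1e-05), and PAD3, the last enzyme of camalexin synthesis, 0.97 ± 0.21 (SE, adjusted p = 0.0035). AT1G26390, a berberine bridge enzyme-like gene, had 9.47, 6.33 and 12.9 CPM in OX at 1 h and 5.85, 2.88 and 4.97 CPM in OX at 0 h. WT had 0.9798, 1.397 and 1.08 CPM at 1 h and 1.82, 2.87 and 4.22 CPM at 0 h. Its interaction was 2.32 ± 0.43 (SE, adjusted p = 0.00091), with a difference of 3.02 at 1 h (adjusted p = 5e-06). Of 15 genes of aliphatic glucosinolates 6 were higher and 0 lower (0 also at an unadjusted p under 0.05 and with DESeq2), with a median of 0.46, and 3 were higher without WT 0 h replicate 2. The regulators MYB29 and MYB28 fell in both genotypes and less in OX, with 1.32 ± 0.26 (SE, adjusted p = 0.0015) and 0.60 ± 0.14 (SE, adjusted p = 0.0058). Of 27 phenylpropanoid and flavonoid genes 4 were higher and 2 lower, with a median of 0.28. The flavonol regulators MYB111 and MYB12 had 1.87 ± 0.27 (SE, adjusted p = 7.8e-05) and 1.52 ± 0.31 (SE, adjusted p = 0.0024), and PAL1, the entry enzyme of the pathway, -0.80 ± 0.19 (SE, adjusted p = 0.0073). The higher count was 7 without WT 0 h replicate 1 and the lower count 1 without WT 0 h replicate 2, WT 1 h replicate 2 or OX 0 h replicate 2. Beside the counts of these lists, 6.06% of all genes were called higher and 6.64% lower.

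Clock and time-of-day genes were called in both senses, 6 (20%) higher and 7 (23.3%) lower of 30, with a median of -0.11. Of all genes, 6.06% were called higher and 6.64% lower. At 0 h 7 of the 30 were higher in OX and 7 lower, beside 7.7% and 6.91% of all genes. TOC1, an evening clock repressor, had 86.6, 93.1 and 97.9 CPM in OX at 1 h and 132, 137 and 138 CPM in OX at 0 h. WT had 112, 111 and 108 CPM at 1 h and 97.4, 88.1 and 95.5 CPM at 0 h. OX was higher at 0 h and lower at 1 h, with -0.79 ± 0.10 (SE, adjusted p = 7e-06). PRR5, a related repressor, had -1.35 ± 0.21 (SE, adjusted p = 0.00013), and CDF1 and CDF3, DOF factors of the morning, 2.15 ± 0.33 (SE, adjusted p = 0.00015) and 1.11 ± 0.24 (SE, adjusted p = 0.0038). The higher count was 3 with all libraries thinned to the smallest or without WT 0 h replicate 2, and the lower count 4 with the 12 libraries alone or without OX 0 h replicate 2 or OX 1 h replicate 1, and it was 3 with all libraries thinned to the smallest or without WT 0 h replicate 2. Of 19 iron genes 3 were higher and 2 lower, with a median of -0.11. NAS4, which makes the metal chelator nicotianamine, had 7.73, 8.65 and 6.67 CPM in OX at 1 h and 7.81, 7.31 and 5.89 CPM in OX at 0 h. WT had 3.46, 4.53 and 3.698 CPM at 1 h and 11.6, 12.2 and 10.8 CPM at 0 h. OX libraries overlapped between times and WT fell, with 1.7 ± 0.17 (SE, adjusted p = 6.3e-07). VTL5, a vacuolar iron transporter-like protein, had -1.88 ± 0.33 (SE, adjusted p = 0.00054) and OPT3, which carries iron in the phloem, 0.68 ± 0.13 (SE, adjusted p = 0.00086). The higher count was 6 without WT 0 h replicate 1, and the lower count 1 with the 12 libraries alone or without WT 0 h replicate 1, WT 1 h replicate 1, WT 1 h replicate 3, OX 0 h replicate 2, OX 0 h replicate 3, OX 1 h replicate 1 or OX 1 h replicate 3.

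**Figure D5:**
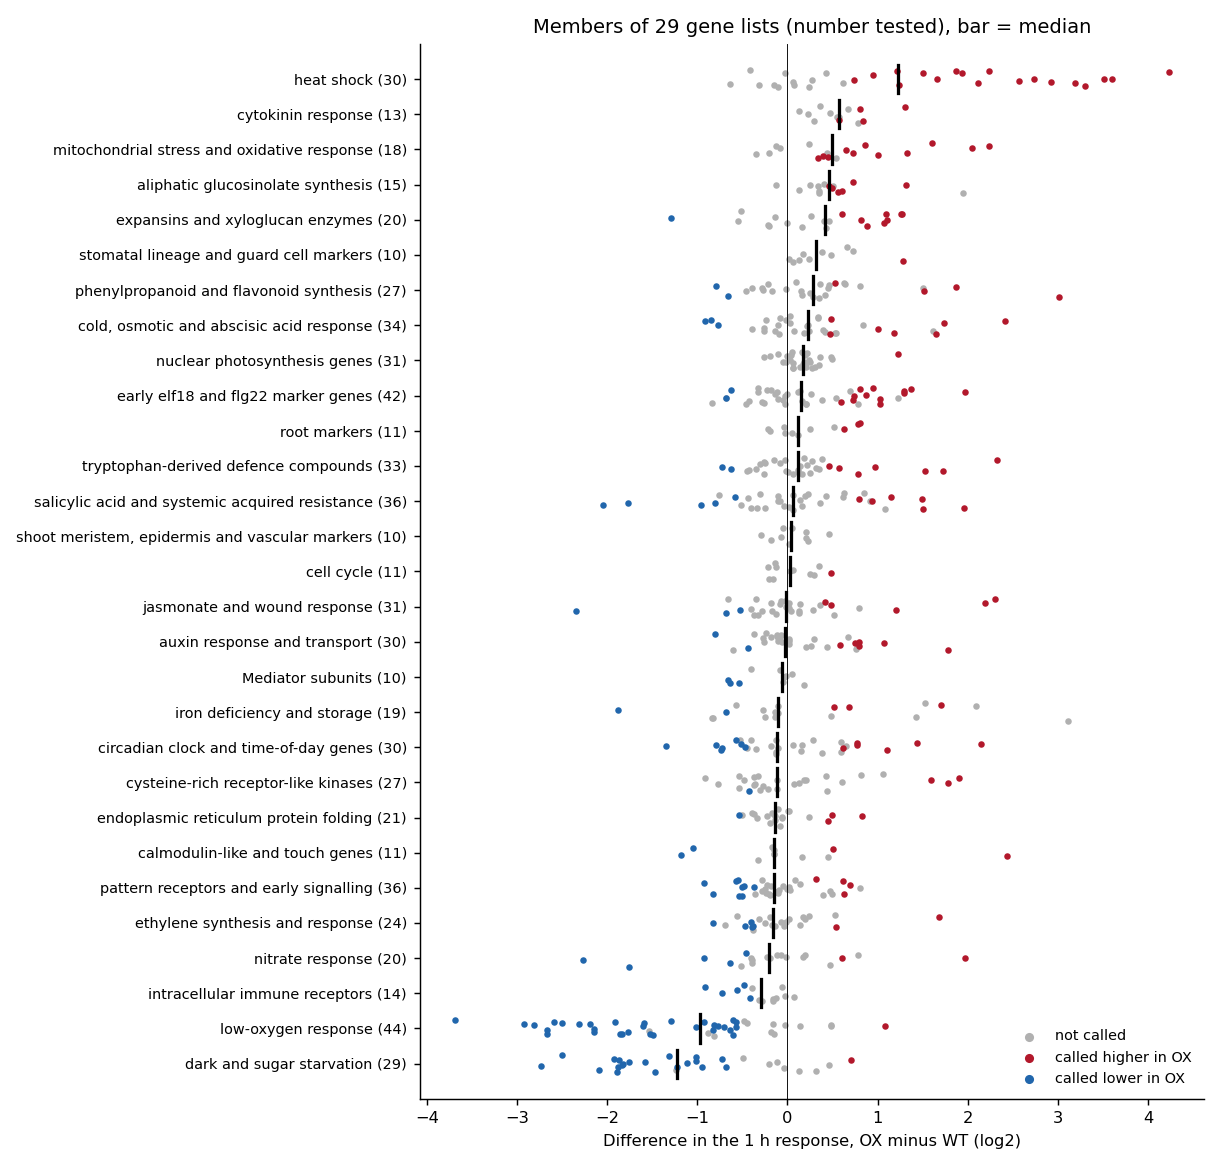
Interaction log2 value (horizontal axis; the 1 h response in OX minus that in WT) of the tested members of 29 gene lists (number of genes in brackets), with a point per gene, red where called higher, blue where called lower and grey where not called, and a bar at the median. Heat shock has the highest median at 1.23, and low-oxygen and starvation genes have the lowest at -0.97 and -1.22.

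Mediator, to which ELENA1 is known to bind, had 3 of 10 subunits called lower and 0 higher, beside 6.64% and 6.06% of all genes. None was higher at an unadjusted p under 0.05 or with DESeq2, and the median was -0.06. CDK8, the kinase of its detachable module, had 24.02, 29.5 and 34.2 CPM in OX at 1 h and 28.97, 29.1 and 32.9 CPM in OX at 0 h. WT had 35.9, 35.5 and 44.8 CPM at 1 h and 26.3, 23.9 and 27.2 CPM at 0 h. OX libraries overlapped between times, with -0.64 ± 0.15 (SE, adjusted p = 0.008). MED25, the subunit that jasmonate and ethylene factors bind, had -0.66 ± 0.17 (SE, adjusted p = 0.012). Of 21 genes of protein folding in the endoplasmic reticulum, where EFR is folded, 3 were higher and 1 lower, with a median of -0.14. The co-chaperone ERDJ3A had 0.82 ± 0.15 (SE, adjusted p = 0.001) and the stress sensor IRE1A -0.54 ± 0.13 (SE, adjusted p = 0.0068); the lower count was 2 without WT 0 h replicate 1 or WT 1 h replicate 3. CRK36, of the cysteine-rich receptor-like kinases, had 1.59 ± 0.24 (SE, adjusted p = 0.00011), and 3 of the 27 in its list (11.1%) were higher and 1 (3.7%) lower. These last counts ranged from 1 to 3 and 0 to 8 over the 20 alternatives, with 8 lower on leaving out WT 0 h replicate 1 and 6 on leaving out WT 1 h replicate 3.

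Most photosynthesis genes of the nucleus rose (29 of 31 in OX, 25 in WT, beside 35.2% of all genes in each). In the interaction 1 was called, higher (3.23%, beside 6.06% of all genes). That count was 0 with the 12 libraries alone or with all libraries thinned to the smallest or without WT 0 h replicate 2, WT 1 h replicate 1, OX 0 h replicate 1 or OX 1 h replicate 2, and it was 4 without WT 0 h replicate 1. Their summed level was 84232 to 102414 CPM in OX at 1 h and 45722 to 57819 CPM in OX at 0 h. WT gave 68758 to 85982 CPM at 1 h and 32825 to 55546 CPM at 0 h. Cell cycle genes had 1 of 11 called (9.09%, near the 6.06% of all genes called higher), CYCD3;1, a G1 cyclin, at 0.48 ± 0.12 (SE, adjusted p = 0.011). Among the markers of tissues, 3 of 11 for root were called higher, 1 of 10 for the stomatal lineage and 0 of 10 for shoot meristem, epidermis and vasculature (1 at an unadjusted p under 0.05, 0 with DESeq2). These too stand beside 6.06% of all genes. The stomatal count was 2 with DESeq2 or with the replicate block or without WT 0 h replicate 1, WT 0 h replicate 3, WT 1 h replicate 3 or OX 0 h replicate 2, and it was 3 without the 3 libraries of steepest length trend or without OX 1 h replicate 1, and the shoot count was 1 without WT 0 h replicate 1. The sum of root markers was 1975 to 2253 CPM in OX at 1 h and 1466 to 1653 CPM in OX at 0 h. WT gave 1563 to 1759 CPM at 1 h and 1756 to 2315 CPM at 0 h. Gene by gene the picture differed from the sum. Of the 11 root markers, 2 rose and 6 fell in OX, and 0 rose and 8 fell in WT. Median responses were -0.65 in OX and -0.51 in WT. Mean log2 CPM of the root markers was 3.68 to 3.77 in OX at 1 h and 4.15 to 4.24 in OX at 0 h. In WT it was 3.67 to 3.79 at 1 h and 4.24 to 4.54 at 0 h. The sum for the stomatal lineage was 61.6 to 67.2 CPM in OX at 1 h and 61.9 to 66.2 CPM in OX at 0 h. WT gave 53.8 to 60.4 CPM at 1 h and 64.5 to 74.6 CPM at 0 h. That of shoot meristem, epidermis and vasculature was 368 to 405 CPM in OX at 1 h and 418 to 459 CPM in OX at 0 h. WT gave 392 to 438 CPM at 1 h and 458 to 490.0 CPM at 0 h. PYK10, an abundant root beta-glucosidase, had an interaction of 0.81 ± 0.14 (SE, adjusted p = 0.00033), and RHD2, the oxidase of growing root hairs, 0.78 ± 0.19 (SE, adjusted p = 0.0086). EPF2, a peptide that limits stomatal number, had 1.29 ± 0.23 (SE, adjusted p = 0.00061). The part of these tissues in the other results was not tested.

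Whether the genotype difference was particular to 1 h was tested against 6 h, in a contrast in which the 0 h libraries cancel. It called 29 genes higher at 1 h than at 6 h (0.138%) and 49 lower (0.233%), of which 61 were also called in the 1 h interaction in the same sense. Both contrasts use the same libraries at 1 h, so this overlap is not independent agreement. At an unadjusted p under 0.05 there were 1927 genes, or 9.17%. In this contrast 1 heat shock gene was called higher and 3 starvation genes lower, with 0 mitochondrial stress or low-oxygen genes called. Median interactions of heat shock, mitochondrial stress, low-oxygen and starvation genes were 0.98, 0.44, -0.86 and -0.70 at 6 h against 0 h. At 12 h against 0 h they were 0.77, 0.59, -1.23 and -0.77. Those later interactions share the 0 h libraries with the 1 h interaction. The following genes were chosen after their values were seen. DIN2 had -1.76 ± 0.29 (SE, adjusted p = 0.0065), its OX minus WT difference being 1.22 at 0 h, -1.51 at 1 h, 0.25 at 6 h and 1.53 at 12 h. Hsp70-2, a cytosolic chaperone, had 1.25 ± 0.14 (SE, adjusted p = 0.00012), with -0.85 at 0 h, 1.1 at 1 h, -0.15 at 6 h and -0.18 at 12 h. NAS4 had 0.97 ± 0.17 (SE, adjusted p = 0.0071), IVD -0.77 ± 0.13 (SE, adjusted p = 0.0071), DIN9, a dark-induced sugar phosphate isomerase, -1.16 ± 0.17 (SE, adjusted p = 0.002), and DMR6 -0.83 ± 0.16 (SE, adjusted p = 0.022). AT1G52120, annotated as a mannose-binding lectin, had 1.17, 1.52 and 1.61 CPM in OX at 1 h and 5.44, 9.12 and 3.51 CPM in OX at 0 h. WT had 3.59, 4.098 and 3.41 CPM at 1 h and 1.48, 1.12 and 1.22 CPM at 0 h. OX fell and WT rose, with an interaction of -3.68 ± 0.51 (SE, adjusted p = 3.7e-05) and a contrast with 6 h of -2.64 ± 0.51 (SE, adjusted p = 0.018). For HSFA2, PDC1, MCCA and KIN1 the contrast did not pass, with 0.89, 0.09, -0.65 and 0.49. The 78 calls were 226 with DESeq2, 33 with the libraries of 1 h and 6 h alone and 131 with a replicate block. Without the 3 libraries of steepest length trend they were 23. Leaving out a library gave 43 (without OX 1 h replicate 2) to 123 (without OX 6 h replicate 3), with 45, 47 and 51 without WT 6 h replicates 1, 2 and 3, 51 without WT 1 h replicate 1, and 51 and 46 without OX 6 h replicates 1 and 2.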

How the data were processed

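Read counts per locus were deposited by the authors as whole numbers in 24 columns, 1 for each library, per the file headers; 12 of these form the interaction. FPKM values were deposited by the authors as 1 value for each of 8 groups, per the file headers; they carry no spread and entered no result. Per the submitters' processing notes, the build was TAIR10 and the tools included TopHat2 2.0.8 and Cufflinks 2.1.1 with Cuffdiff, besides DESeq2, with no role stated. The counter and its strand setting are not stated there. Replicates are biological, per the labels' protocols.

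All 24 libraries entered 1 quasi-likelihood fit in edgeR 4.0.16 (R 4.3.3) with 8 group means, 16 residual degrees of freedom, TMM scaling and filterByExpr at a minimum count of 10. The threshold was a Benjamini-Hochberg adjusted p of 0.05 over 21015 genes, and the fit was tested on simulated counts. Every adjusted p given is from this fit, except the upper value of 0.21 for PR2, which is from an alternative. CPM is counts scaled to library size multiplied by the TMM factor of that library, not to library size alone. This factor was 1.07 to 1.16 at 0 h and 0.86 to 0.89 at 1 h. Each log2 fold change has its standard error (SE) from the fit.

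Members, the 29 gene lists (682 loci) and tests were chosen with earlier results of these data known. Named genes are PR1, PR2, the 12 largest interactions in each direction (mean log2 CPM of 1 or more, responses not overlapping), and up to 4 members of a list by smallest p plus 2 of opposite sign. Of these, members whose calls were lost under several alternatives are mostly left unnamed. Some that kept their call, such as CML37 (2.44), or lost it under 1 alternative, such as WRKY38 (-1.77), are left out too. The list of 11 calmodulin-like and touch genes, 2 called higher and 2 lower, is not described. Its counts ran from 1 to 2 and from 0 to 2 over the alternatives. Alternatives were DESeq2 1.42.0, RLE factors, no filter, the 12 libraries alone, a replicate block, leaving out each library, leaving out 3 libraries of steep length trend, removing that trend, and thinning to 18767661 counts. Promoter windows come from the TAIR10.1 genome, with loci matched by identifier (21330 of 21407). ELENA1 was not analysed here.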

Additional observations from a re-analysis of the deposited data

Results flagged for a closer look

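The 1 h response differed between the genotypes for 2668 genes by the test of the interaction itself, and for the genes named here the log2 value is the OX response minus the WT response. PR1 had 1.96 and PR2 1.51, and that of PR2 was lost under 12 of 20 alternatives. The heat shock genes were HSFA2 with 4.23, HSP17.6A with 3.6, HSP17.6II with 3.51, AT1G07400 with 3.3, AT1G53540 with 3.18, AT1G59860 with 2.95, HSP17.4 with 2.92, HSP101 with 2.73 and ROF2 with 2.57. Other positive values were 2.49 for the O-methyltransferase gene AT1G77520, 2.47 for AT1G47395, of unknown function, and 2.44 for PAO1, a polyamine oxidase. PAO1 had 3.04, 4.19 and 4.67 CPM in OX at 1 h and 3.21, 2.28 and 3.46 CPM in OX at 0 h. WT had 2.92, 3.32 and 4.95 CPM at 1 h and 9.79, 18.1 and 16.1 CPM at 0 h. WT at 0 h lay above all other libraries.

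The largest negative value was -4.48 for SRO4, which is in none of the lists. The low-oxygen genes with negative values were AT5G10040 with -3.69, AT4G10265 with -2.92, PDC1 with -2.81, AT4G33560 with -2.67, HRA1 with -2.66 and AT2G17850 with -2.59. Without WT 0 h replicate 1 the value was -5.05 for AT4G10265 and -4.16 for HRA1. For SRO4 and AT5G10040 the value rests on 16 and 19 counts in the 3 WT libraries at 0 h together. The starvation genes DIN2 and MCCA had -2.74 and -2.51. Further values were -3.68 for the lectin gene AT1G52120, -3.13 for the peroxidase gene AT3G03670 and -2.96 for AT3G43850. AT3G03670 had 2.49, 2.61 and 2.77 CPM in OX at 1 h and 17.8, 30.2 and 18.16 CPM in OX at 0 h. WT had 8.75, 9.56 and 7.17 CPM at 1 h and 9.77, 4.36 and 11.3 CPM at 0 h. OX at 1 h was the lowest group and OX at 0 h the highest, while WT libraries overlapped between times.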

How the results depend on the processing

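The direction held for all 140 called genes that the naming rule picks, under each of 20 alternatives. The rule takes large interactions or small p from the same libraries that the alternatives refit, so a kept direction was nearly fixed in advance. Of the 140, 105 kept their call under every alternative and 35 lost it under at least 1. Interaction calls numbered 2668, against 1659 with the 12 libraries alone and 1565 thinned to the smallest library; leaving out a library gave 1681 (WT 0 h replicate 2) to 3299 (WT 0 h replicate 1). OX minus WT at 0 h had 1961 calls when thinned and 1825 to 3578 over left-out libraries. At 1 h it had 562 with the 12 libraries alone, 638 when thinned, 612 with the 3 steep-trend libraries left out, and 472 to 1162 over left-out libraries. The contrast of 1 h with 6 h had 226 calls with DESeq2, 33 with its own libraries alone, 131 with the replicate block, 23 without the libraries of steep trend, 144 with the trend removed, 35 when thinned and 43 to 123 over left-out libraries. Thinning and fewer libraries lower the counts or samples available by construction; the cause of the other shifts was not tested.

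Replicate numbers showed at most a weak pairing, and the main fit held no replicate block. Same-numbered libraries correlated by -0.173 to 0.223 in their deviations from group means, 8 of 18 pairs over 0.1. The mean was 0.068 for the same number and -0.035 for different numbers, and 6 of 12 libraries matched best with their own number. Whether libraries of the same number shared a batch was not tested. With the replicate block the interaction had 3043 calls. Depth limits genes near 0, such as SRO4 and AT5G10040 in WT at 0 h.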
